A study of Mus musculus with 30 samples.

Results

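The genes described are those of the mouse mitochondrial genome, taken as every gene whose symbol begins with mt-. There were 37 of them among 54532 annotated features: 13 protein-coding genes, 22 transfer RNA (tRNA) genes and 2 ribosomal RNA (rRNA) genes. All 37 lay on the chromosome named MT in the count files. RNA came from YUMM1.7 mouse melanoma cells, a C57BL/6 line with an activating Braf mutation, sorted live from dissociated tumours by strong GFP signal, with CD45 stained for immune cells. The injected cells were clones isolated with CaTCH, a barcode-based way to recover a chosen clone. The 5 clones were 2646TN, 2646R, 14559TN, 14559R and 13TN, the last also titled Depleted1. Each clone was sampled untreated and under RAFi/MEKi, inhibitors of the RAF and MEK kinases of the MAPK pathway, with 3 tumours a group, which gave 10 groups and 30 libraries. Each clone name stands for 1 clone, so a difference between clones rests on a single isolate of each kind. The inhibitors' names, doses and days are not given in the sources used here, nor is what TN and R stand for. Replicate numbers only name the tumours.

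Mitochondrial DNA is copied in many molecules per cell and is transcribed from both strands into long precursors. The tRNAs sit between the other genes and are cut out, which frees the rRNAs and messenger RNAs. The rRNAs and most of the messenger RNAs then receive short adenosine tails, and the tRNAs receive a CCA end. The 13 proteins are subunits of respiratory complexes I, III, IV and V, whose other subunits are encoded in the nucleus.

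The libraries were QuantSeq 3′ libraries, primed on adenosine stretches, and held 3022801 to 5278453 counts each. Mature tRNAs end in CCA rather than an adenosine tail, so counts on tRNA genes cannot be read as levels of mature tRNA. Which RNAs these counts came from was not tested. Where a tRNA is said below to rise or fall, its counts are meant. The counting dropped reads placed at several loci and reads that overlapped several genes, per the file headers, so a read across a tRNA and its neighbour was not counted. Levels are CPM (counts scaled to a common library size) with TMM library factors throughout, except for class totals and shares, which are over the plain library total. On the first principal component of the 1000 most variable genes, treated 14559R replicate 3 (-33.16) lay among the untreated 14559R libraries (-36.1, -23.84 and -31.55). Treated 14559R replicates 1 and 2 lay at -14.01 and -20.01. Of the melanocyte genes checked, Mitf reached 12.0 to 81.1 CPM, Sox10 0 to 51.7 (median 0.307), S100b 0 to 11.7 and Pmel 0 to 1.81. Tyr, Tyrp1 and Dct were listed at 0 in all libraries, and Mlana did not exceed 0.251 CPM. In bulk RNA, fewer cells of a type and less RNA per cell cannot be told apart.

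Mitochondrial genes took 148901 counts in all. The rRNAs held 70.7% of these, the protein-coding genes 19.3% and the tRNAs 10.0%. mt-Rnr2, the large-subunit rRNA, alone held 58.4%, and mt-Rnr1, the small-subunit rRNA, 12.4%. Among protein-coding genes the largest shares were those of mt-Nd2 (6.47%), mt-Nd4 (4.21%), mt-Cytb (3.83%) and mt-Nd1 (3.15%). Among tRNAs they were those of mt-Tm for methionine (4.67%) and mt-Tp for proline (3.13%). Per kilobase of gene, the mean level was 830 CPM for mt-Tm, 576 for mt-Tp, 454 for mt-Rnr2, 160.2 for mt-Rnr1 and 76.9 for mt-Nd2. A 3′ library gives about 1 tag per molecule whatever its length, so values per kilobase favour the short tRNAs. On the minus strand, mt-Nd6 held 155 counts and 8 tRNAs held 5552, most from mt-Tp (4662), followed by mt-Tq (559) and mt-Ta (257).

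The tRNAs that the comparisons turn on are shown as genomic DNA in the sense of the tRNA, from GENCODE vM21 on GRCm38, with the anticodon in capitals. They lie at MT:1-68 (mt-Tf, phenylalanine), MT:1025-1093 (mt-Tv, valine), MT:2676-2750 (mt-Tl1, leucine) and MT:3845-3913 (mt-Tm), all on the plus strand, and at MT:15356-15422 on the minus strand (mt-Tp). mt-Tf, mt-Tv and mt-Tl1 flank the rRNAs on either side.
mt-Tf: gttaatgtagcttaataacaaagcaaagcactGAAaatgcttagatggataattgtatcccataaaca
mt-Tv: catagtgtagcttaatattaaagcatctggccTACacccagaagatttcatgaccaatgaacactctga
mt-Tl1: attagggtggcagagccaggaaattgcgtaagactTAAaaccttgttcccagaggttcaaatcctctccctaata
mt-Tm: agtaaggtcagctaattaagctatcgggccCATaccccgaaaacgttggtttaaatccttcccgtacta
mt-Tp: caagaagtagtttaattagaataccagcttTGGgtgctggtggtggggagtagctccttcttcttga

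Counts did not cover the whole genome. A total of 13 of the 37 genes were listed at 0 in every library: the protein-coding genes mt-Co2, mt-Atp8, mt-Atp6, mt-Co3 and mt-Nd4l, and 8 tRNAs (mt-Tw, mt-Tn, mt-Ty, mt-Ts1, mt-Td, mt-Tk, mt-Tg and mt-Th). mt-Nd3 had 2 counts and mt-Te 1. mt-Ti, mt-Tc, mt-Tr, mt-Ts2 and mt-Tt had 19 to 76 counts over the 30 libraries. mt-Co2 and mt-Co3 are subunits of complex IV, and mt-Atp6 and mt-Atp8 of complex V, so no complex V subunit encoded in mitochondria could be described.

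The 5 protein-coding genes at 0 and mt-Nd3 lie in 1 stretch of the genome that has a near-identical nuclear counterpart. GENCODE lists 7 unprocessed pseudogenes on the minus strand of chromosome 1 that match consecutive genes of this stretch, from part of mt-Co1 to part of mt-Nd4. Gm28661 matched mt-Co2 at 100% over 681 bases, Gm10925 matched mt-Atp6 at 100% over 678, Gm28437 matched mt-Co3 at 100% over 783 and Gm10222 matched mt-Nd4l at 100% over 294. Gm10925 also held the last 43 bases of mt-Atp8, and Gm28438 matched mt-Nd3 with 1 mismatch in 345 bases. These 7 pseudogenes had 2 counts in all. mt-Atp8 shared 0 of its 155 windows of 50 bases with an annotated nuclear transcript. The sequence between the pseudogenes is not annotated and was not searched. Whether the counterpart also holds the rest of mt-Atp8 and the tRNAs of this stretch was therefore not tested. The 3′ ends of mt-Co2 and mt-Co1 and the start of mt-Nd3 are shown beside their counterparts, with differing bases in capitals, because identical reads from such pairs have no unique place. The pseudogene spans are chr1:24614885-24615565, chr1:24615706-24616197 and chr1:24612775-24613119.
mt-Co2, bases 622 to 681: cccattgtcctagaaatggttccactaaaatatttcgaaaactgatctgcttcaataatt
Gm28661, bases 622 to 681: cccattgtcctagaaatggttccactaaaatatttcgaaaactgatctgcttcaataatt
mt-Co1, bases 1486 to 1545: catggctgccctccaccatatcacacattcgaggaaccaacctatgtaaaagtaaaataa
Gm29216, bases 433 to 492: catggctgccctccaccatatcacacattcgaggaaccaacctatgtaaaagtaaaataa
mt-Nd3, bases 1 to 60: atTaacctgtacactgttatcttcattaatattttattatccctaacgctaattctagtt
Gm28438, bases 1 to 60: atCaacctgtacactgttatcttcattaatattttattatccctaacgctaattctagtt

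Genes that were counted differed in how much of their sequence was shared. Of the last 300 windows of 50 bases in mt-Co1, 300 also occurred in a nuclear transcript, and its 854 counts make up 0.574% of the mitochondrial total. Of the last 300 windows of mt-Nd4, 0 did, although 62.2% of all its windows were shared, and mt-Nd4 had 6267 counts. mt-Rnr1, mt-Rnr2, mt-Nd1, mt-Nd6, mt-Cytb and all tRNAs shared no window. Among the tRNAs at 0, mt-Tw, mt-Tn, mt-Ty and mt-Th lie outside the stretch, and the search covered annotated transcripts only, so copies in unannotated sequence were not tested. Copies of at least 95% identity numbered 11 and held 235 counts, 0.158% of the mitochondrial total. Of these, Gm13341, a chromosome 2 copy of mt-Co2 at 95.9%, held 183.

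**Figure D1:**
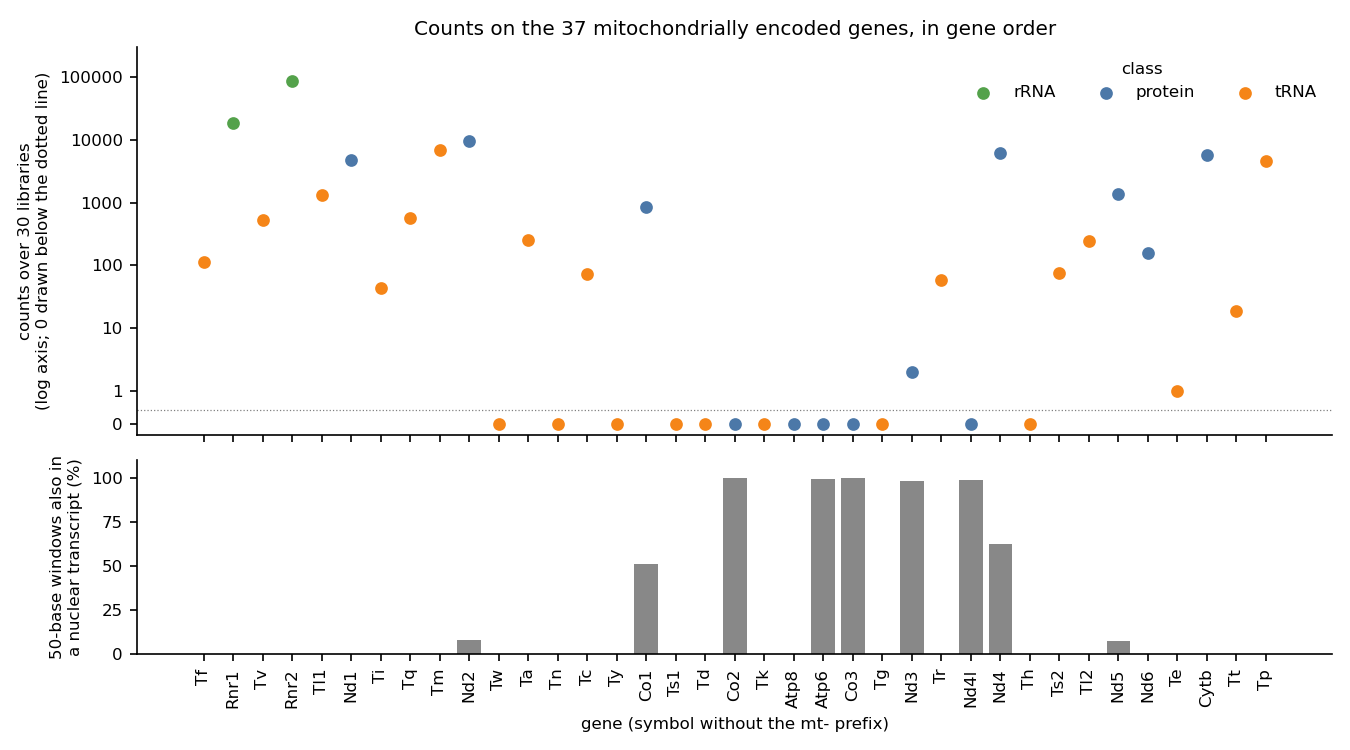
Top, counts over all 30 libraries for each of the 37 genes in genome order (log axis, with 0 drawn below the dotted line), coloured by class. Bottom, the percentage of each gene's 50-base windows found in a nuclear transcript; mt-Co2 is at 100% with 0 counts, and mt-Rnr2 is at 0% with 86913 counts.

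Of the 37 genes, 17 passed the low-count filter and were tested: both rRNAs, mt-Nd1, mt-Nd2, mt-Co1, mt-Nd4, mt-Nd5, mt-Nd6 and mt-Cytb, and the tRNAs mt-Tf, mt-Tv, mt-Tl1, mt-Tq, mt-Tm, mt-Ta, mt-Tl2 and mt-Tp. The counts of calls below refer to these 17 and say nothing of the other 20. mt-Tf reached the filter only through its highest libraries: untreated 14559TN replicate 3 (16 counts), treated 14559R replicate 2 (13) and untreated 13TN replicate 1 (12). Its calls, which are included in the counts below, are therefore not independent of the filter and add no support of their own. A gene is called at an edgeR adjusted p under 0.05 over all 13286 genes tested.

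The share of counts on mitochondrial genes was 0.0627% to 0.191% per library (median 0.125%). The 3 lowest of the 30 libraries were the untreated 14559R tumours, at 0.0627%, 0.0737% and 0.0719%. The untreated 14559TN tumours, from the clone of the same number, stood at 0.147%, 0.162% and 0.191%, and the groups did not overlap. Under RAFi/MEKi the shares were 0.131%, 0.102% and 0.157% in 14559R and 0.131%, 0.111% and 0.139% in 14559TN, which overlapped. In the other groups the means were 0.131% ± 0.0179 (SD, n = 3) in untreated and 0.102% ± 0.0211 in treated 2646TN, 0.121% ± 0.0412 and 0.137% ± 0.0363 in 2646R, and 0.125% ± 0.0512 and 0.123% ± 0.0362 in 13TN. The untreated 14559R tumours thus lay below the other 27 libraries, the next lowest being untreated 2646R replicate 3 at 0.0758%.

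Within the untreated 14559R group the classes stood at different distances from 14559TN and from treated 14559R. In untreated 14559R the rRNAs held 442 ± 57.9 CPM of the plain library total (SD, n = 3), against 1156 ± 105 in untreated 14559TN and 906 ± 210.1 in treated 14559R. The tRNAs held 49.9 ± 4.73, against 194.2 ± 87.6 and 193.2 ± 64.9. The protein-coding genes held 202.4 ± 12.7, against 316 ± 43.8 and 200.3 ± 27.5, so that their share of the mitochondrial counts was 29.3% ± 3.44 in untreated 14559R and 15.8% ± 3.14 in treated 14559R. The protein-coding total was highest in treated 13TN, at 311 ± 61.3, and untreated 14559TN, at 316 ± 43.8, which overlapped. Over the 30 libraries the tRNA total ranged from 43.3 to 295 on this scale, the rRNA total from 375 to 1374 and the protein-coding total from 179 to 358.

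**Figure D2:**
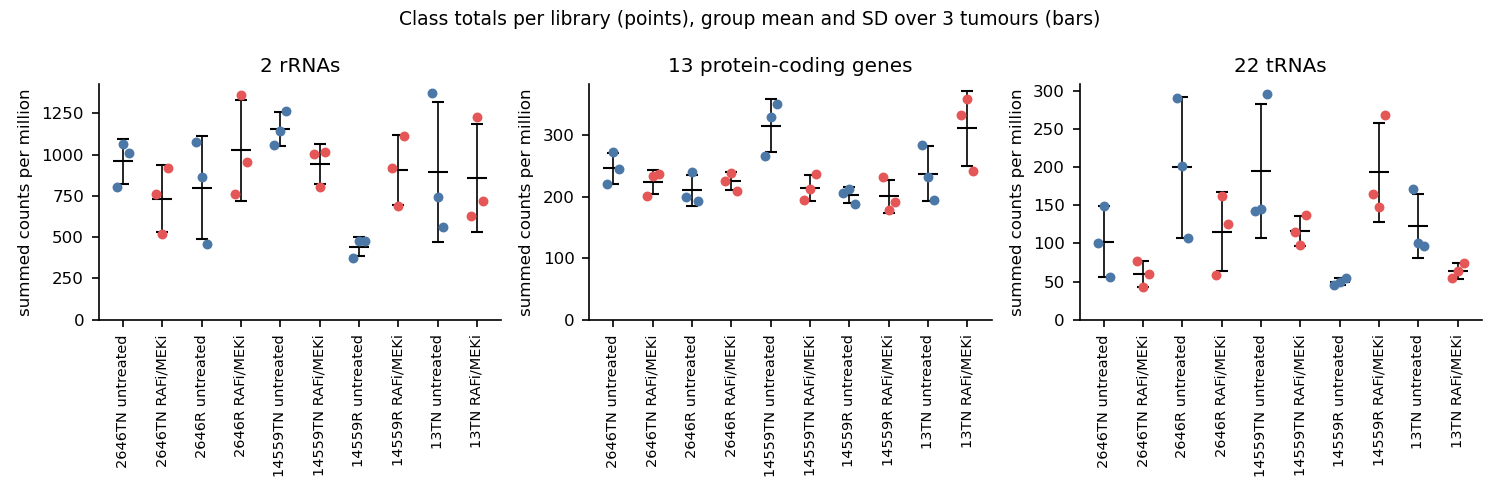
Summed CPM over the plain library total for rRNAs, protein-coding genes and tRNAs (linear axes from 0) in each of the 30 libraries, blue untreated and red RAFi/MEKi, with the mean and SD over 3 tumours. Untreated 14559R is low for rRNAs (442 ± 57.9) and tRNAs (49.9 ± 4.73), while its protein-coding total (202.4 ± 12.7) is close to that of treated 14559R (200.3 ± 27.5).

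Untreated 14559R and 14559TN tumours were compared to ask how the clones differ without drug. Both rRNAs, mt-Nd1, mt-Nd2 and the tRNAs mt-Tf, mt-Tm and mt-Tp were lower in 14559R, 7 of 17 tested genes, and none was higher. Over all tested genes, 24.1% were called in this comparison, 11.2% lower and 12.9% higher. The median log2 fold change of the 17 was -0.98, against 0.0034 over all tested genes, and it was also -0.98 with mt-Tf at the limit its counts allow. DESeq2 also called 7 genes.

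mt-Rnr2 stood at 317, 410.2 and 410.1 CPM in untreated 14559R and at 882, 943 and 1065 in untreated 14559TN. The log2 fold change was -1.34 ± 0.35 (SE; edgeR adjusted p = 0.00697), and the groups did not overlap. mt-Rnr1 stood at 78.1, 77.5 and 84.4 CPM against 180.6, 210.1 and 218, a log2 fold change of -1.34 ± 0.32 (edgeR adjusted p = 0.00353), again without overlap. Both mitoribosome rRNAs were thus lower by the same log2 amount.

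Of the complex I subunits, mt-Nd2 had 41.8, 38.1 and 42.7 CPM in untreated 14559R against 98.0, 137 and 131 in untreated 14559TN, a log2 fold change of -1.58 ± 0.28 (edgeR adjusted p = 0.000217). mt-Nd1 had 31.8, 34.4 and 34.1 CPM against 48.4, 49.1 and 64.2, a log2 fold change of -0.69 ± 0.18 (edgeR adjusted p = 0.00574). Neither pair of groups overlapped. mt-Nd5 had 11.7, 9.23 and 7.80 CPM against 12.9, 15.9 and 17.6 and was not called (log2 fold change -0.69, edgeR adjusted p = 0.0588). For mt-Nd4 the values were 55.7, 64.4 and 45.6 CPM against 57.0, 68.1 and 67.9, which overlapped (log2 fold change -0.22). mt-Nd6, the one subunit on the minus strand, had 3.23, 2.08 and 2.93 CPM against 0.507, 2.45 and 0 (log2 fold change 1.53, edgeR adjusted p = 0.132). mt-Cytb, of complex III, had 67.4, 64.4 and 56.8 CPM against 43.3, 51.8 and 64.9 (log2 fold change 0.24). mt-Co1, of complex IV, had 6.22, 5.77 and 5.12 CPM against 7.60, 7.97 and 10.1 and was not called (log2 fold change -0.58). The protein-coding genes therefore split into 2 called lower and 5 not called.

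Among tRNAs, mt-Tm had 16.4, 18.5 and 26.3 CPM in untreated 14559R and 86.1, 79.7 and 187 in untreated 14559TN, a log2 fold change of -2.53 ± 0.52 (edgeR adjusted p = 0.00124). mt-Tp, on the opposite strand, had 16.7, 22.1 and 16.1 CPM against 33.4, 44.5 and 64.7, a log2 fold change of -1.37 ± 0.41 (edgeR adjusted p = 0.0168). mt-Tf had 0, 0 and 1 count in the 14559R libraries, against 5, 6 and 16 in those of 14559TN (27 in all). The ratio was 30.1, with a 95% Poisson interval of the lower count of 5.397 to 1188 that covers counting error only, and the gene was called (edgeR adjusted p = 0.00715). mt-Tv, mt-Tl1, mt-Tq, mt-Ta and mt-Tl2 had log2 fold changes of -1.31 to -0.58 and were not called. The call of mt-Tp was lost without untreated 14559R replicate 1 or 3 or untreated 14559TN replicate 3 (edgeR adjusted p up to 0.0892), and the other 6 calls held without each library in turn.

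RAFi/MEKi tumours of 14559TN were compared with untreated ones to ask how the clone responds. The complex I subunits mt-Nd1, mt-Nd2 and mt-Nd5 and the tRNA mt-Tm fell, 4 of 17, and no gene rose. Over all tested genes 28.4% were called, 16.0% lower and 12.4% higher, so 4 of 17 (23.5%) lay near the background. mt-Nd1 went from 48.4, 49.1 and 64.2 CPM to 34.0, 29.0 and 28.5, a log2 fold change of -0.82 ± 0.18 (edgeR adjusted p = 0.000921). mt-Nd5 went from 12.9, 15.9 and 17.6 CPM to 5.95, 6.67 and 7.13, a log2 fold change of -1.23 ± 0.28 (edgeR adjusted p = 0.00113). In both, every treated tumour lay below every untreated one.

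mt-Nd2 went from 98.0, 137 and 131 CPM to 51.9, 61.7 and 85.2 (log2 fold change -0.88 ± 0.28, edgeR adjusted p = 0.0188). mt-Tm went from 86.1, 79.7 and 187 CPM to 41.1, 29.0 and 51.9 (log2 fold change -1.54 ± 0.49, edgeR adjusted p = 0.0232). The groups did not overlap for either gene. The rRNAs were not called: mt-Rnr2 was at 882, 943 and 1065 CPM untreated and at 805, 670.0 and 814 treated (log2 fold change -0.34), and mt-Rnr1 had a log2 fold change of -0.52. mt-Nd4 and mt-Cytb had log2 fold changes of -0.29 and -0.28 and were not called. The count of 4 fell to 2 without untreated replicate 3 or treated replicate 1 or 2, and mt-Nd1 and mt-Nd5 were called in all 10 alternatives.

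In 14559R under RAFi/MEKi the tRNAs mt-Tv and mt-Tp rose, 2 of 17, where 0.196% of all tested genes were called, 0.143% higher and 0.0527% lower. Of the 17 genes 14 had a positive log2 fold change and 3 a negative one. The median log2 fold change of the 17 was 1.03, against 0.0013 over all tested genes. DESeq2 called 4.

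mt-Tp went from 16.7, 22.1 and 16.1 CPM in untreated to 70.8, 65.5 and 109 in treated 14559R, a log2 fold change of 2.15 ± 0.41 (edgeR adjusted p = 0.0245). mt-Tv went from 2.49, 3.00 and 1.46 CPM to 10.4, 8.53 and 19.4, a log2 fold change of 2.44 ± 0.47 (edgeR adjusted p = 0.0149). Neither gene's groups overlapped, and the highest treated value of each was in replicate 3, the library that lay among the untreated ones on the first principal component. Without that library mt-Tp was called and mt-Tv was not, and without untreated replicate 1 or 3 neither was.

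Other genes of this clone had large fold changes without passing the test. mt-Tm had 16.4, 18.5 and 26.3 CPM untreated and 66.1, 61.9 and 118.5 treated (log2 fold change 2.01, edgeR adjusted p = 0.116). mt-Rnr2 had 317, 410.2 and 410.1 CPM untreated and 789, 607 and 990.2 treated (log2 fold change 1.07, edgeR adjusted p = 0.229), and mt-Rnr1 had a log2 fold change of 1.03 (edgeR adjusted p = 0.210). None of these tests passed the threshold. mt-Tf had 1 count over the untreated libraries and 2, 13 and 4 in the treated ones, so replicate 2 held most of the 19. The ratio was 18.9 (95% Poisson interval of the lower count, 3.40 to 748), and the interval does not cover the spread between tumours. mt-Cytb had 67.4, 64.4 and 56.8 CPM untreated and 43.4, 40.9 and 33.8 treated, in the other direction (log2 fold change -0.67, edgeR adjusted p = 0.171), and mt-Nd4 and mt-Nd6 also had negative values (-0.41 and -1.47).

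The difference between the responses of 14559R and 14559TN was tested as an interaction. It was positive, with the response in 14559R above that in 14559TN, for 9 of 17 genes: mt-Rnr1, mt-Nd1, mt-Nd2, mt-Nd5, mt-Co1, mt-Tf, mt-Tv, mt-Tm and mt-Tp. Over all tested genes 12.0% were called, 7.93% positive and 4.08% negative. The log2 difference was 3.55 ± 0.72 for mt-Tm (edgeR adjusted p = 0.0023), 3.46 ± 0.70 for mt-Tv (edgeR adjusted p = 0.000888), 2.32 ± 0.56 for mt-Tp (edgeR adjusted p = 0.00788) and 1.68 ± 0.40 for mt-Nd2 (edgeR adjusted p = 0.00596). That of mt-Rnr1 was 1.54 ± 0.44 (edgeR adjusted p = 0.0249), and that of mt-Rnr2, 1.41, missed the threshold (edgeR adjusted p = 0.062). The median over the 17 was 1.49, against 0.034 over all tested genes. This contrast and the untreated and treated comparisons of the pair use the same libraries, so they are not separate evidence. Without untreated 14559TN replicate 3 the count fell to 5, and without treated 14559R replicate 3 it was 7.

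**Figure D3:**
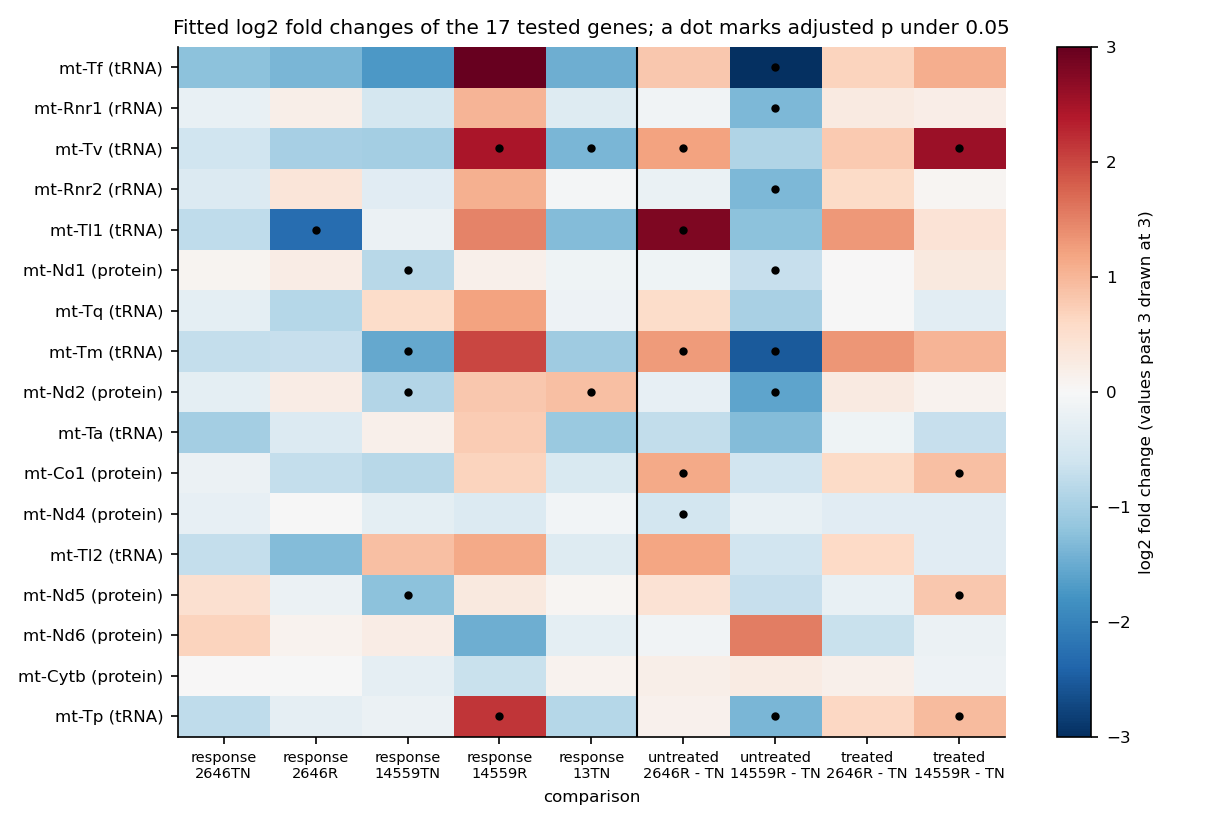
Fitted log2 fold changes (colour, red higher and blue lower) of the 17 tested genes, in genome order down the page, for 5 drug responses and 4 comparisons of R with TN clones; a dot marks an edgeR adjusted p under 0.05. The 14559R response column is mostly red and the untreated 14559R against 14559TN column mostly blue, with 7 dots; mt-Tf had 1 count in untreated 14559R, so its size there is uncertain.

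Treated 14559R and treated 14559TN tumours were compared with each other as well. mt-Tv, mt-Tp, mt-Co1 and mt-Nd5 were higher in 14559R, 4 of 17, where 49.4% of all tested genes were called, 26.6% higher and 22.8% lower. mt-Tv had 10.4, 8.53 and 19.4 CPM in 14559R and 2.83, 1.88 and 1.71 in 14559TN, a log2 fold change of 2.57 ± 0.48 (edgeR adjusted p = 5.27e-05). mt-Co1 had 8.60, 8.53 and 10.1 CPM against 4.53, 4.79 and 5.13, and mt-Nd5 had 10.9, 9.99 and 14.1 against 5.95, 6.67 and 7.13, with log2 fold changes of 0.91 ± 0.33 and 0.82 ± 0.28 (edgeR adjusted p = 0.0223 and 0.017). mt-Tp had 70.8, 65.5 and 109 CPM against 39.95, 41.1 and 46.2 (log2 fold change 0.95 ± 0.38, edgeR adjusted p = 0.0445). The count of 4 fell to 1, mt-Tv, without treated 14559TN replicate 1 or 2 or treated 14559R replicate 3. The rRNAs had log2 fold changes of 0.20 and 0.06.

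**Figure D4:**
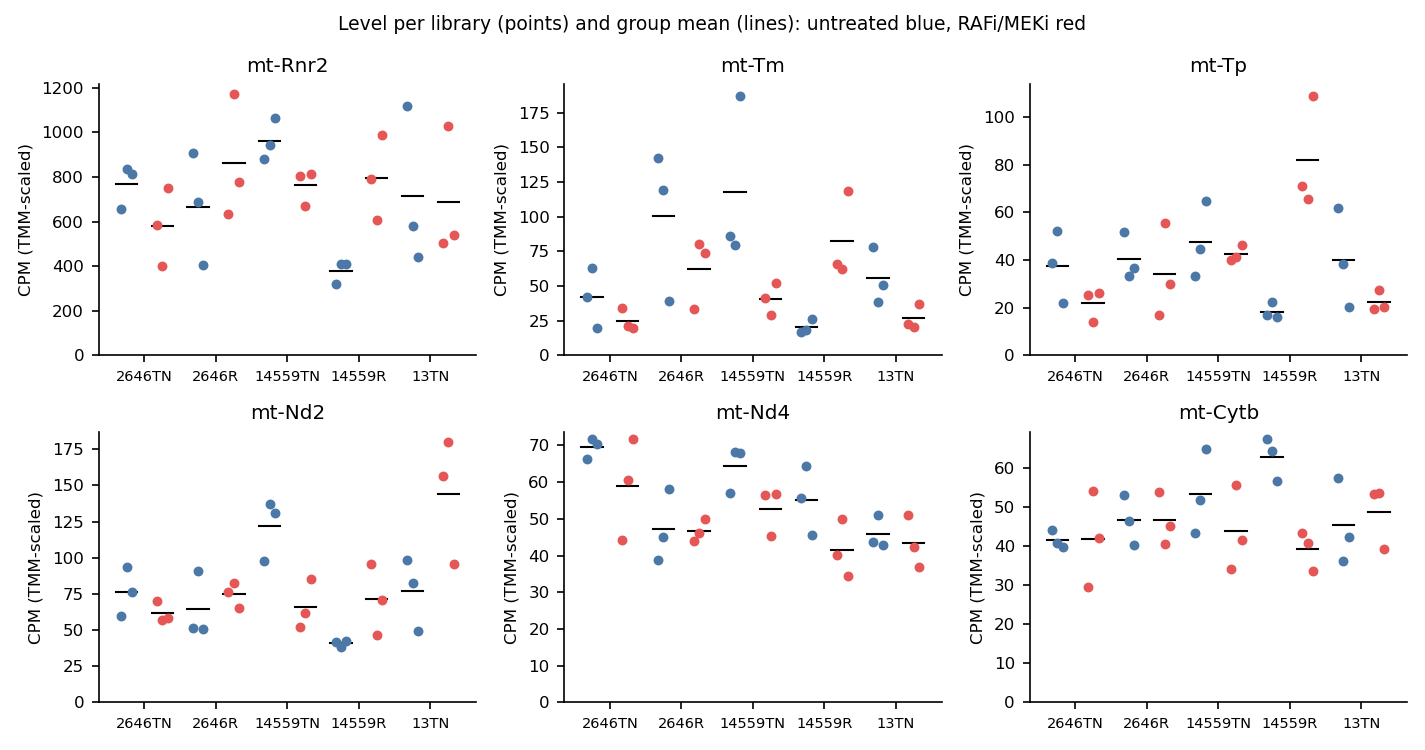
CPM per library (points; linear axes from 0) and group means (lines) of mt-Rnr2, mt-Tm, mt-Tp, mt-Nd2, mt-Nd4 and mt-Cytb for the 5 clones, blue untreated and red RAFi/MEKi. In 14559R the untreated points of mt-Rnr2, mt-Tm and mt-Tp lie below the treated ones, while those of mt-Cytb (67.4, 64.4 and 56.8) lie above them (43.4, 40.9 and 33.8).

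The other pair of clones with a shared number, 2646R and 2646TN, was also compared untreated. mt-Tl1, mt-Tm, mt-Tv and mt-Co1 were higher in 2646R and mt-Nd4 was lower, 5 of 17 (29.4%). Over all tested genes 36.6% were called, 18.3% higher and 18.4% lower, so the share of the 17 lay below the background. The median log2 fold change of the 17 was 0.17, against -0.0046 over all tested genes. mt-Tl1, the leucine tRNA beside mt-Rnr2, had 75.1, 33.1 and 19.4 CPM in 2646R and 3.77, 11.5 and 3.59 in 2646TN. The log2 fold change was 2.81 ± 0.60 (edgeR adjusted p = 0.000745), and the 3 tumours of 2646R spread by more than those of 2646TN. The rRNAs were not called (mt-Rnr1 -0.12 and mt-Rnr2 -0.20 as log2 fold changes).

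mt-Co1 had 16.9, 8.50 and 10.1 CPM in 2646R and 4.78, 7.15 and 4.49 in 2646TN (log2 fold change 1.13 ± 0.32, edgeR adjusted p = 0.00591). mt-Nd4 had 38.8, 45.1 and 58.1 CPM against 66.4, 71.8 and 70.4 (log2 fold change -0.56 ± 0.18, edgeR adjusted p = 0.0131). Neither overlapped between the groups. mt-Tv had 10.6, 4.96 and 6.00 CPM against 3.27, 3.73 and 2.47 (log2 fold change 1.20 ± 0.47, edgeR adjusted p = 0.0428), without overlap. mt-Tm had 142, 119.5 and 39.0 CPM against 42.2, 63.1 and 19.7 (log2 fold change 1.29 ± 0.49, edgeR adjusted p = 0.0453), with overlap. Untreated 2646R replicate 1 was the highest of its group for mt-Tl1, mt-Tm, mt-Tv and mt-Co1, and without it mt-Tl1 alone was called. The count was 3 without untreated 2646TN replicate 1 or 3.

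RAFi/MEKi in 2646R lowered 1 of 17 genes, mt-Tl1, from 75.1, 33.1 and 19.4 CPM to 3.25, 12.6 and 10.6 (log2 fold change -2.28 ± 0.57, edgeR adjusted p = 0.00605), where 19.9% of all tested genes were called, 9.70% higher and 10.2% lower. Without untreated replicate 1 the call was lost (edgeR adjusted p = 0.0706), and without treated replicate 2 the count was 3. In 2646TN edgeR called 0 of 17, with 0 at an unadjusted p under 0.05 and 0 by DESeq2, where 3.94% of all tested genes were called, 1.69% higher and 2.24% lower. There mt-Tl1 had 3.77, 11.5 and 3.59 CPM untreated and 4.79, 2.27 and 3.53 treated, which overlapped. The responses of 2646R and 2646TN differed for 0 of 17 genes by edgeR (0 at an unadjusted p under 0.05, 0 by DESeq2), where 4.15% of all tested genes were called, 2.36% higher and 1.78% lower. For mt-Tl1 the log2 difference was -1.51 (edgeR adjusted p = 0.408). Treated 2646R and 2646TN differed for 0 of 17 by edgeR, with 1 at an unadjusted p under 0.05 and 1 by DESeq2, where 20.1% of all tested genes were called, 10.0% higher and 10.1% lower.

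In 13TN, RAFi/MEKi raised mt-Nd2 and lowered mt-Tv, 2 of 17, where 31.0% of all tested genes were called, 13.6% higher and 17.4% lower. mt-Nd2 went from 98.4, 82.4 and 49.4 CPM to 156, 179.9 and 95.5 (log2 fold change 0.90 ± 0.27, edgeR adjusted p = 0.0137), with overlap between the groups. In 14559TN the same gene fell. mt-Tv went from 3.40, 3.71 and 5.22 CPM to 1.58, 1.13 and 2.01 (log2 fold change -1.37 ± 0.53, edgeR adjusted p = 0.0474), without overlap, but its call was lost in 9 of 10 alternatives. The call of mt-Nd2 was lost in 3, among them without untreated replicate 3 and without treated replicate 2.

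Across the 5 clones, 10 of 17 genes differed among untreated groups in an F test (58.8%), close to the 56.6% of all tested genes: both rRNAs, mt-Nd1, mt-Nd2, mt-Nd4, mt-Co1, mt-Tf, mt-Tv, mt-Tl1 and mt-Tm. Without untreated 14559R replicate 1 the count was 6. The responses of the 5 clones differed for 8 of 17 (47.1%), where 28.8% of all tested genes were called: mt-Nd1, mt-Nd2, mt-Nd5, mt-Tf, mt-Tv, mt-Tl1, mt-Tm and mt-Tp. mt-Cytb, mt-Nd6, mt-Tq, mt-Ta and mt-Tl2 were called in neither. The group means of mt-Tq, for glutamine, ranged from 2.52 to 7.26 CPM, those of mt-Ta, for alanine, from 1.18 to 3.57, those of mt-Tl2, the other leucine tRNA, from 0.798 to 4.04, and those of mt-Nd6 from 0.837 to 2.75.

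The nuclear genes of the same pathway were counted in the same fit. The oxidative phosphorylation list held 75 tested nuclear subunits of the respiratory complexes and ATP synthase. In 14559TN under RAFi/MEKi, 38 of 75 fell and none rose, where 16.0% of all tested genes were lower and 12.4% higher. The median log2 fold change was -0.45, against -0.00043 over all tested genes. Cox5a, a complex IV subunit, went from 223 ± 20.3 to 86.8 ± 6.02 CPM (SD, n = 3; log2 fold change -1.36 ± 0.13 SE, edgeR adjusted p = 1.77e-09), and Atp5b, the catalytic subunit of ATP synthase, from 417 ± 29.5 to 221 ± 17.6 (log2 fold change -0.92 ± 0.12 SE). In 13TN, 29 of 75 fell and 1 rose, where 17.4% of all tested genes were lower and 13.6% higher, with Cox5a (log2 fold change -1.09 ± 0.13 SE) and Atp5b (-0.97 ± 0.12 SE) again lower, while mt-Nd2 was the called mitochondrial subunit and rose.

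In 14559R, 0 of 75 nuclear subunits were called in the response by edgeR, with 5 at an unadjusted p under 0.05 and 1 by DESeq2. Only 0.196% of all tested genes were called in this response, so 0 of 75 lay near the background. Between untreated 14559R and 14559TN, 5 of 75 were higher and none lower, where 12.9% of all tested genes were higher and 11.2% lower, so these shares lay below the background. The median log2 fold change was 0.02. Uqcrq, a complex III subunit, had 302 ± 33.9 CPM in 14559R and 195.9 ± 1.47 in 14559TN (SD, n = 3; log2 fold change 0.62 ± 0.14 SE, edgeR adjusted p = 0.00141). Between treated 14559R and 14559TN, 39 of 75 were higher and none lower, where 26.6% of all tested genes were higher and 22.8% lower. The response difference was called positive for 16 of 75, where it was called positive for 7.93% of all tested genes, and that of Cox5a was 1.05 ± 0.18 (SE) on the log2 scale. Without treated 14559R replicate 3 these counts were 32 and 12.

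Mitochondrial ribosomal proteins, which assemble with mt-Rnr1 and mt-Rnr2, were counted likewise. In 14559TN 32 of 74 fell and none rose, where 16.0% of all tested genes were lower, among them Mrpl34 from 175.2 ± 10.9 to 85.1 ± 2.61 CPM (SD, n = 3; edgeR adjusted p = 3.28e-06). In 13TN 29 of 74 fell and none rose, where 17.4% of all tested genes were lower. In untreated 14559R against 14559TN 13 of 74 were higher and 1 lower, where 12.9% of all tested genes were higher and 11.2% lower, with Mrpl39 at 50.2 ± 11.6 against 24.4 ± 2.80 CPM (SD, n = 3). In treated tumours of this pair 45 of 74 were higher, where 26.6% of all tested genes were higher (37 of 74 without treated 14559R replicate 3).

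Genes that copy, transcribe and mature mitochondrial nucleic acids were compared between untreated 14559R and 14559TN, where 12.9% of all tested genes were higher and 11.2% lower. Of 23 tested genes of DNA maintenance and transcription 2 were higher and 2 lower. Of 30 RNA processing and stability genes 5 were higher and none lower, among them Pde12, a mitochondrial deadenylase, at 18.7 ± 2.67 against 9.15 ± 2.16 CPM (SD, n = 3; edgeR adjusted p = 0.00674). Of 18 tRNA modification genes 3 were higher and 1 lower, of 23 aminoacyl-tRNA synthetases 5 were higher and 1 lower, and of 12 translation factors none was called by edgeR, with 2 at an unadjusted p under 0.05 and 0 by DESeq2. Of 8 biogenesis regulators 1 was higher and 1 lower, the latter being Ppargc1b, a transcriptional coactivator, at 1.20 ± 0.195 against 6.29 ± 0.872 CPM (SD, n = 3; edgeR adjusted p = 0.00683). In the 14559TN response 7 of the 30 processing genes fell, where 16.0% of all tested genes were lower, including Elac2, which cuts tRNA 3′ ends (log2 fold change -0.81 ± 0.22 SE, edgeR adjusted p = 0.0053), and none rose. In the 14559R response edgeR and DESeq2 called 0 genes of these 6 lists, with 0 to 2 in each at an unadjusted p under 0.05. There edgeR called only 0.196% of all tested genes, so 0 lay near the background.

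Within groups, some mitochondrial genes deviated together from tumour to tumour. Over the 30 libraries, after subtracting group means of log2(CPM + 0.5), 78 pairs of the 13 genes with a mean of at least 10 counts were compared, and 13 pairs had an adjusted permutation p under 0.05. mt-Rnr1 and mt-Rnr2 gave Pearson's r = 0.90 (permutation p = 1e-05, the smallest that the permutations could give; adjusted p = 0.00078) and Spearman's rho = 0.89 (adjusted permutation p = 0.00078), with r = 0.88 without the 2 libraries farthest from the median. mt-Tl1 and mt-Tm, which lie on either side of mt-Nd1, gave r = 0.81 and rho = 0.82 (adjusted permutation p = 0.00273 and 0.00351), with r = 0.80 without the 2 farthest.

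Such pairs were not limited to 1 strand. mt-Rnr2 and mt-Tp, on opposite strands, gave r = 0.73 and rho = 0.74 (adjusted permutation p = 0.00562 and 0.00546), with r = 0.72 without the 2 farthest libraries. mt-Rnr2 with mt-Nd4 gave r = -0.22 and rho = -0.15 (adjusted permutation p = 0.497 and 0.638), with r = -0.11 without the 2 farthest. With mt-Cytb it gave r = 0.08 and rho = 0.05 (adjusted permutation p = 0.837 and 0.866), with r = -0.13 without the 2 farthest. All values of a pair come from the same library and share its depth and scaling.

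**Figure D5:**
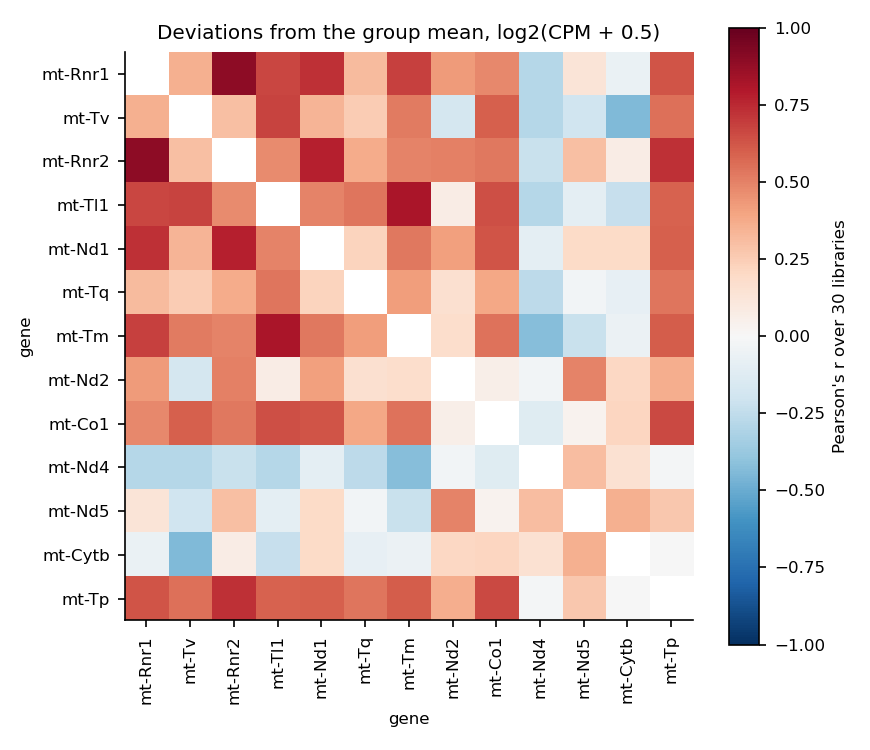
Pearson's r over 30 libraries between deviations from the group mean of log2(CPM + 0.5) for 13 mitochondrial genes, in genome order on both axes (red positive, blue negative; the diagonal is blank). mt-Rnr1 and mt-Rnr2 reach 0.90 and mt-Rnr2 and mt-Tp 0.73, while mt-Rnr2 and mt-Nd4 stand at -0.22.

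Some nuclear small RNAs, chosen after their values were seen, also differed between 14559R and 14559TN. Rny3, a Y RNA transcribed in the nucleus, had 15.2, 13.8 and 15.6 CPM in untreated 14559R and 21.3, 37.4 and 31.7 in untreated 14559TN (log2 fold change -1.01 ± 0.23 SE, edgeR adjusted p = 0.00129). Under RAFi/MEKi it had 27.1, 31.4 and 42.6 CPM in 14559R (log2 fold change 1.18 ± 0.23 SE, edgeR adjusted p = 0.0149). Rny1 had 7.71, 8.77 and 8.53 CPM in untreated 14559R against 26.3, 17.8 and 25.2 in untreated 14559TN (log2 fold change -1.47 ± 0.28 SE, edgeR adjusted p = 0.00024). Its response in 14559R was not called (log2 fold change 0.86, edgeR adjusted p = 0.229). In the 14559TN response Rny1 fell (log2 fold change -1.28 ± 0.28 SE, edgeR adjusted p = 0.000778) and Rny3 was not called (-0.34, edgeR adjusted p = 0.263). The response difference, 14559R minus 14559TN, was called for both. It was 2.13 ± 0.40 (SE) for Rny1 (edgeR adjusted p = 0.000438) and 1.52 ± 0.32 (SE) for Rny3 (edgeR adjusted p = 0.00126). Rn7sk, a small nuclear RNA that restrains transcription elongation, had the opposite signs without being called. It had 7.71, 7.84 and 3.17 CPM in untreated 14559R and 2.79, 4.29 and 3.02 in untreated 14559TN, with log2 fold changes of 0.90 between the untreated clones (edgeR adjusted p = 0.0997) and -0.33 in the 14559R response (edgeR adjusted p = 0.82). Its response difference was -0.79 (edgeR adjusted p = 0.397). The summed level of the annotated miscellaneous RNA genes, which include the Y RNAs, was 34.9 ± 1.21 CPM in untreated 14559R, 66.0 ± 7.86 in untreated 14559TN and 62.1 ± 11.4 in treated 14559R (SD, n = 3). That of small nucleolar RNAs was 140.4 ± 5.12, 231 ± 35.5 and 191.5 ± 21.1 CPM. In treated 14559TN the miscellaneous RNA sum was 46.0 ± 2.54 CPM and the small nucleolar RNA sum 372 ± 44.6 (SD, n = 3). The summed level of small nuclear RNAs was 97.6 ± 9.03 CPM in untreated 14559R and 100.7 ± 6.88 in untreated 14559TN (SD, n = 3), and that of the annotated microRNA genes 235 ± 19.5 and 237 ± 6.22. The part of library or RNA quality in the mitochondrial differences was not tested.

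Markers of other cell types also moved in these groups. All 13 macrophage markers reached 1 CPM in some library, and their sum was 23.5 to 54.9 CPM in untreated 14559R and 25.3 to 91.3 in untreated 14559TN, which overlapped. The erythroid markers summed to 119 to 201 CPM in untreated 14559R and 61.0 to 115 in untreated 14559TN, without overlap. In treated 14559R the erythroid sum was 84.1 to 173 CPM, and in treated 14559TN it was 25.8 to 48.7, below the untreated tumours of that clone. Of 10 lymphocyte markers 7 stayed under 1 CPM in every library, Cd3g, Cd79a and Ms4a1 being at 0, and the sum came mostly from Trbc2. It was 141 to 249.9 CPM in untreated 2646R and 14.9 to 26.9 in untreated 2646TN, 33.1 to 44.8 in untreated and 1.04 to 4.25 in treated 14559TN, and 28.9 to 38.8 in untreated and 44.6 to 82.4 in treated 14559R. The 7 skeletal muscle markers summed to 6.29 to 12.6 CPM in untreated and 14.4 to 24.9 in treated 14559TN, and to 1.46 to 5.198 and 14.1 to 24.4 in 13TN. In 14559R they summed to 1.24 to 3.90 CPM untreated, below untreated 14559TN without overlap, and to 4.28 to 6.11 treated, above the untreated tumours without overlap. Of the 7 muscle markers, Tnnt3 reached 19.3 CPM (median 4.13) and no other exceeded the 6.56 CPM of Acta1. Myh1 was at 0 in all libraries, and Ckm and Myh4 had medians of 0. The 8 endothelial markers summed to 14.4 to 33.6 CPM in untreated 14559R and 21.0 to 21.9 in untreated 14559TN. In untreated 2646R the macrophage sum was 35.7 to 72.2 CPM, the erythroid sum 61.3 to 202.8 and the endothelial sum 9.45 to 18.4. In untreated 2646TN these sums were 169.8 to 266, 227 to 885 and 47.3 to 55.7 CPM, each above 2646R without overlap. In treated 2646R the macrophage sum was 110.6 to 136 CPM, above the untreated tumours of that clone. The part of these cells in the mitochondrial differences was not tested.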

How the data were processed

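The authors deposited raw read counts per gene. STAR 2.6.0c, featureCounts 1.6.2 and GRCm38 are named in the submitters' processing notes; the count settings (paired, stranded, no multi-mapping or overlapping assignments) are per the file headers. From these counts, edgeR 4.0.16 in R 4.3.3 fitted all 10 groups (filterByExpr by group, TMM, robust quasi-likelihood, 20 residual degrees of freedom), with Benjamini-Hochberg adjustment over 13286 genes and calls under 0.05, in 13 comparisons. The script was tested on simulated data. DESeq2 1.42.0, median-of-ratios factors, no filter, fits of only the groups compared and leaving out each tumour were alternatives. Sequences were compared with BLAST 2.17.0 and exact windows of 50 bases against GENCODE vM21 transcripts; a copy matched at least 40 bases at 90% identity. Correlations used 100000 permutations within groups. Replicate libraries differed by 3.26 to 17.2 chi-square units per degree of freedom, so none was counted as a repeat. Whether tumours came from separate animals is not given in the sources used here, so p-values measure the spread between these samples.

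Named genes were all members by class, with values in every library for those called and for the 2 of highest mean count in each class, and up to 2 called genes of smallest adjusted p from a pathway list. Members, pathway lists and marker lists were chosen with earlier results of these data known. Lists were described by counts and medians. Overlap between groups describes the printed values only, and the share of all tested genes without overlap is not given. Calls rest on these same values, so a lack of overlap adds no support to a call. Intervals cover counting error only.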

Additional observations from a re-analysis of the deposited data

Results flagged for a closer look

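The log2 difference between the responses to RAFi/MEKi of 14559R and 14559TN passed the edgeR interaction test for 9 genes. It was 5.53 for mt-Tf, 3.55 for mt-Tm, 3.46 for mt-Tv, 2.32 for mt-Tp, 1.68 for mt-Nd2, 1.54 for mt-Rnr1, 1.51 for mt-Nd5, 1.49 for mt-Co1 and 0.98 for mt-Nd1. The value of mt-Tf rests on 1 count in untreated 14559R, so its size is uncertain. This gene passed the low-count filter only through its highest libraries, 2 of them in these groups. Its call was lost in 3 of 14 alternatives: without untreated 14559TN replicate 3, untreated 14559R replicate 2 or treated 14559R replicate 2. For mt-Tv, mt-Tm, mt-Nd2, mt-Nd5 and mt-Tp the call held in all 16 alternatives. With 3 tumours a group, single tumours were not tested for standing apart.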

How the results depend on the processing

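No called fold change changed sign in any alternative. Without the low-count filter the count of mitochondrial genes called was 2 in the 2646TN response, 3 in 2646R, 7 in 14559R, 4 in 13TN, 4 between treated 2646R and 2646TN and 1 for the difference of their responses. That fit tested more genes, members among them, so these counts cannot be set against the main ones. In it the edgeR adjusted p of mt-Tm in the 14559TN response was 5.36e-14, against 0.0232 in the main fit. The share of all genes called is not given for any alternative, so the counts have no background beside them. With a fit of only the groups compared the count of mitochondrial genes called was 1 in the 14559R response, 3 between untreated 2646R and 2646TN and 1 between the treated ones. DESeq2 gave 4 in the 14559R response, 1 in 13TN and 1 between treated 2646R and 2646TN, and median-of-ratios factors gave 1 in 13TN. Leaving out 1 tumour at a time gave counts of 0 to 0 (2646TN), 0 to 3 (2646R), 2 to 4 (14559TN), 0 to 2 (14559R) and 0 to 1 (13TN) for the responses. For R against TN it gave 1 to 5 (untreated 2646R), 0 to 1 (treated 2646R), 6 to 8 (untreated 14559R) and 1 to 5 (treated 14559R). For the response differences it gave 0 to 0 (2646R) and 5 to 9 (14559R), and for the F tests 6 to 12 (untreated clones) and 6 to 9 (responses). The cause was not tested. Group shares moved by less than 1 SD with TMM-scaled totals or with nuclear copies added. No paired analysis was possible because replicate numbers follow accession order and every tumour has its own code. Genes under about 10 counts a library, most of the tRNAs, are limited by depth.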
